A study of Mus musculus with 15 samples.

Results

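The heat shock protein and DnaJ genes encode the cell's main molecular chaperones and their partners. Every gene whose platform symbol begins with Hspa, Hspb, Hspd, Hspe, Hsph, Hsp90 or Dnaj was taken, which gave 72 of the 18193 genes measured. They comprised 14 Hsp70 and Hsp110 genes, 2 Hsp90 genes, the 2 genes of the mitochondrial chaperonin, 10 Hspb genes and 44 DnaJ genes. Of the DnaJ genes, 4 were Dnaja, 13 Dnajb and 27 Dnajc. Most Hspb genes encode small heat shock proteins, but 3 of them are not chaperones of the classic kind. These are Hspb11, which encodes the intraflagellar transport subunit IFT25, and the binding-protein genes Hspbp1 and Hspbap1. Hsp90ab1 was not analysed here, and Dnajc19, whose 3 probe sets are also annotated to a pseudogene, was left out.

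The values came from 15 Affymetrix expression arrays, 5 from the subventricular zone (SVZ), 5 from the hippocampus and 5 from the cerebellum. All 3 groups came from male Gli1-CreER;GFAP-GFP;R26tdTomato mice aged 6 to 8 weeks, so that every control carried the same alleles and drug. Tamoxifen, given as 2 doses of 10 mg, switched on tdTomato in cells that were using the Gli1 locus, a target of Sonic hedgehog signalling. After 3 weeks each region was dissected and dissociated, and cells that were tdTomato-labelled and positive for the GFAP reporter were sorted, with 10 to 12 mice pooled for each array. The SVZ and the hippocampus hold adult neural stem cells and the cerebellum served as the comparison tissue, so stem cell content and brain region cannot be told apart. In such bulk samples, fewer cells of a type and less RNA per cell cannot be told apart either. The p-values measure the spread between these pools.

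Hsp70 proteins bind and release unfolded stretches of other proteins in a cycle driven by ATP; DnaJ proteins bring them their clients and start the hydrolysis, and Hsp110 proteins reset the cycle by exchanging the nucleotide. Hsp90 takes over partly folded clients such as kinases and steroid receptors, the Hsp60 and Hsp10 chaperonin encloses proteins in mitochondria, and small heat shock proteins hold unfolded proteins in solution. Heat and oxidative stress switch on a subset through heat shock factor 1, which binds repeated GAA units in alternating orientation, whereas chaperones of the endoplasmic reticulum (ER) are induced by ATF6 through the ER stress response element.

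The elements through which inducible and ER chaperones are known to be controlled are shown for some of the genes that carry them. RefSeq promoter windows (GRCm38.p6, 250 bases before to 50 after each start site) were matched by symbol to 59 of the 72 genes, which had 76 windows. The 13 genes without a window were not searched. A gene that is not shown, such as Hsp90aa1 or Hspa8, may still carry an element. A heat shock element of 3 alternating units (GAANNTTCNNGAA or TTCNNGAANNTTC, read on both strands) was present in 0.603% of all 32851 windows and in 6 of the 76 chaperone windows (7.89%), those of Hspe1, Hspd1, Hsph1 and Dnajb6. The shorter form with 2 units (GAANNTTC or TTCNNGAA), which lies inside the longer one, was present in 15.1% of all windows and in 23.7% of the chaperone windows, covering 16 genes. The ER stress response element (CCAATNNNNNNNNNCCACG, both strands) was present in 0.119% of all windows and in 3 chaperone windows (3.95%), those of Hspa5, Hsp90b1 and Dnajc3. These shares count windows, not separate elements. The Dnajb6 windows overlap and hold the same bases of the 3-unit element, as do the Hsph1 windows. Hspe1 and Hspd1 also share theirs. A match of letters is a description and not a measured binding site. The stretches below are written 5′ to 3′ on the gene's strand, with the heat shock element in capitals.
Hspe1: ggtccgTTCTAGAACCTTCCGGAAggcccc
Hsph1: tgctgcagaTTCTGGAAAGTTCt
Dnajb6: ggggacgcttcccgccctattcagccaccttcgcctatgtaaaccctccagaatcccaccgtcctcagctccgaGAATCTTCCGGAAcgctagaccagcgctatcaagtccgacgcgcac
Hspa1a: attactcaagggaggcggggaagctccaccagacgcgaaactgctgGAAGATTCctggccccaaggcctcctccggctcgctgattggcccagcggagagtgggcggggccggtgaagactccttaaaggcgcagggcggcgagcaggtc
Hspa1b: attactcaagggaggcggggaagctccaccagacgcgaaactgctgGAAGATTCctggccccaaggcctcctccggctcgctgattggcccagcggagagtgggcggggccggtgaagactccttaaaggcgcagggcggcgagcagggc
Hspb1: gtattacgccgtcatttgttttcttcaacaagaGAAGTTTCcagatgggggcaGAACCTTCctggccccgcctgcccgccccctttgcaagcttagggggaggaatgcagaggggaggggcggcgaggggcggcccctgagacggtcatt
Dnajb4: ttcgttcgctgTTCTAGAAagtaca

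The Hspe1 stretch is chr1:55088053-55088082 on the plus strand, and the same bases lie in the Hspd1 window on the minus strand, since both genes start from one shared promoter and point away from each other. The Hsph1 stretch (chr5:149636287-149636309, minus strand) follows the start site by 27 to 49 bases. The Dnajb6 stretch is chr5:29735778-29735897 (plus) and the Hspb1 stretch is chr5:135887769-135887918 (plus). Those of Hspa1a (chr17:34972157-34972306) and Hspa1b (chr17:34959239-34959388) are on the minus strand, and the 250 bases before their start sites were identical at 247 positions (98.8%). Dnajb4 (chr3:152193846-152193870, minus) had its 2 units just before the start site. The next set shows the ER stress response element of 3 ER chaperones in capitals.
Hspa5: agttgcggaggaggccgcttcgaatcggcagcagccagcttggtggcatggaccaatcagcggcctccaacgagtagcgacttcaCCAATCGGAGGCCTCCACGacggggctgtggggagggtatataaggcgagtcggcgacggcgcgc
Hsp90b1: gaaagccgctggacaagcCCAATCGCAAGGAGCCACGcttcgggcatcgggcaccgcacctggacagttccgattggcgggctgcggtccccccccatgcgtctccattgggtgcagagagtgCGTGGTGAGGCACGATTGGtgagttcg
Dnajc3: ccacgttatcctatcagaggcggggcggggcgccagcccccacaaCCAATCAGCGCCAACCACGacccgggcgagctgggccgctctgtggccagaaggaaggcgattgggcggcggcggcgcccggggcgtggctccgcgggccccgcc

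The Hspa5 stretch is chr2:34771940-34772089 (plus strand), the Hsp90b1 stretch is chr10:86705525-86705674 (minus) and the Dnajc3 stretch is chr14:118937782-118937931 (plus). Hsp90b1 carried the element in both orientations.

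Where a gene had several probe sets, the brightest on average stood for it, and values are the deposited log2 signals, on which most probe sets lie near 1. Of the 72 genes, 39 had a mean above 3 over the 15 arrays. By family these were 10 of the 14 Hsp70 and Hsp110 genes, both Hsp90 genes, both chaperonin genes, 2 of the 10 Hspb genes, 3 of the 4 Dnaja, 7 of the 13 Dnajb and 13 of the 27 Dnajc genes. The 5 with the highest means were Hspa8, Hspa5, Hspe1, Hsp90b1 and Dnaja1. Levels of different genes are not compared, because probe sets differ in how they bind.

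Few chaperone genes differed between regions, and each one that did was lower outside the cerebellum. In limma with Benjamini-Hochberg adjustment over all 18193 genes, 4 of the 72 were lower in the SVZ than in the cerebellum at an adjusted p below 0.05 (5.56%, against 4.47% of all genes), and none was higher (1.03% of all genes). Hippocampus arrays were lower than cerebellum arrays for 5 of the 72 (6.94%, against 3.97% of all genes) and higher for none (0.808% of all genes). Among genes with a mean above 3, the shares that were lower were 3 of 39 (7.69%) against 9.99% for the SVZ and 4 of 39 (10.3%) against 9.14% for the hippocampus. At this threshold the chaperone counts lay near the background share of each comparison. At an unadjusted p below 0.05, 18 of the 72 were lower in the SVZ (25.0%, against 13.6% of all genes) and 4 higher (5.56%, against 7.55%). In the hippocampus 15 were lower (20.8%, against 12.6%) and 2 higher (2.78%, against 7.55%). These unadjusted shares were not matched for brightness. At the adjusted threshold, genes with a mean above 3 were lower more often than all genes (9.99% against 4.47% for the SVZ). With quantile normalization, which gives every array the same distribution, 2 and 0 chaperone genes were lower, and the split over all genes became 356 lower and 225 higher in the SVZ (814 and 188 as deposited) and 304 lower and 159 higher in the hippocampus (722 and 147). These comparisons share the 5 cerebellum arrays.

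The middle of the distribution gave the same picture. Over the 72 genes the median log2 difference from the cerebellum was -0.30 in the SVZ and -0.40 in the hippocampus, where the median over all genes was 0.07 in both. Restricted to a mean above 3, the chaperone medians were -0.59 and -0.78 beside -0.72 and -0.70 over all 4816 such genes. Below 0 lay 32 of the 39 brighter chaperone genes (82.1%) for the SVZ and 33 (84.6%) for the hippocampus, compared with 76.2% and 78.7% of all genes of that brightness.

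**Figure D1:**
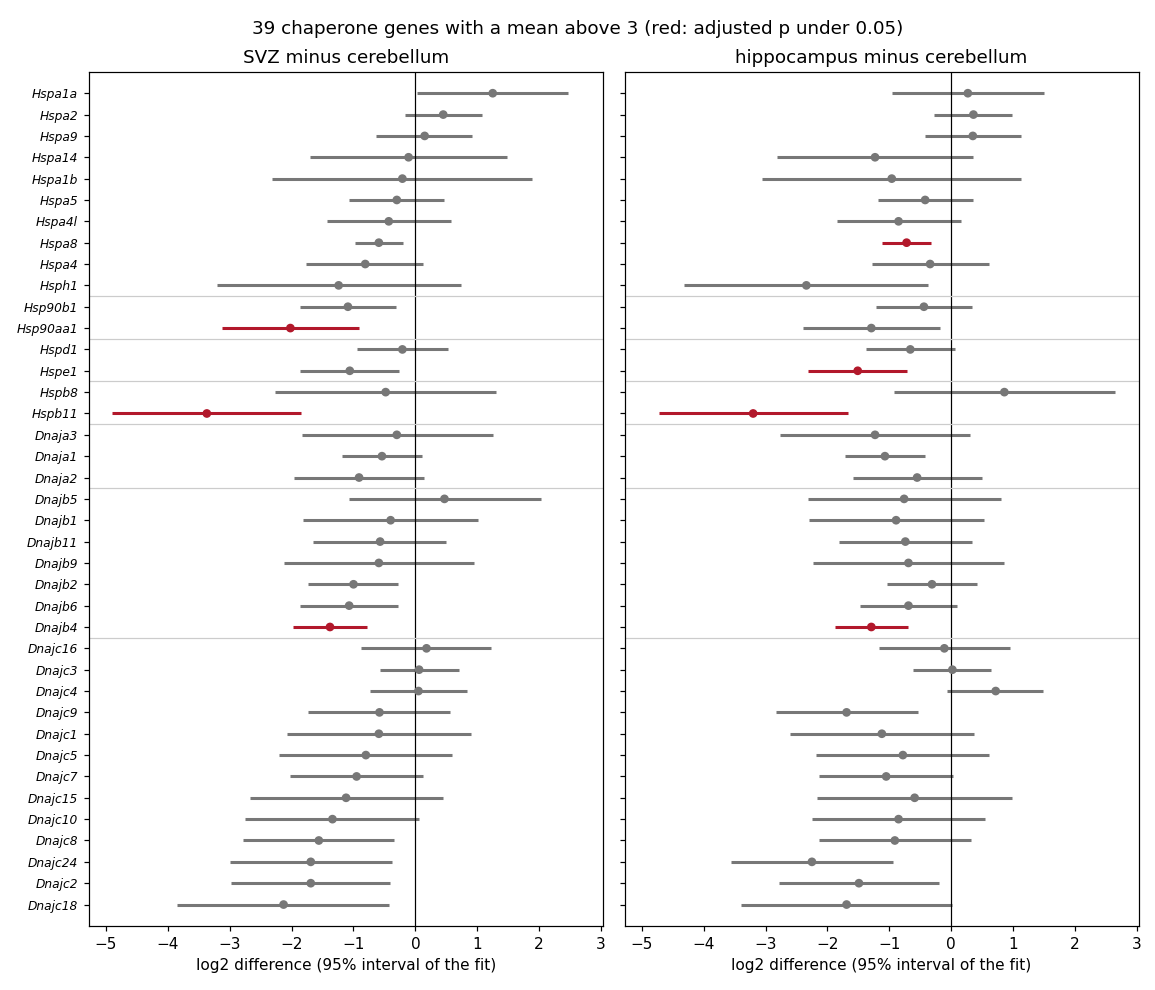
Log2 difference of each of the 39 chaperone genes with a mean above 3 from the cerebellum, for the SVZ (left) and the hippocampus (right); points are limma estimates, bars are 95% intervals, lines separate families and red marks an adjusted p below 0.05. Most points lie left of 0 and 7 are red, 3 for the SVZ and 4 for the hippocampus.

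Hspb11, whose product IFT25 rides in the particle that moves proteins along cilia and is needed there for Hedgehog signalling in mice, had the widest difference of the 72 genes in both comparisons. Its log2 signals were 1.60, 3.31, 0.86, 5.04 and 3.48 in the SVZ and 2.06, 4.47, 3.44, 1.59 and 3.62 in the hippocampus. In the cerebellum they were 6.65, 5.65, 6.70, 5.84 and 6.32. All 5 cerebellum arrays were thus above all 10 others, while the SVZ and hippocampus arrays overlapped and were widely scattered. The difference was -3.37 ± 0.71 (SE; adjusted p = 0.0128) for the SVZ, or 10.4-fold lower, and -3.20 ± 0.71 (adjusted p = 0.0184) for the hippocampus, or 9.16-fold lower. Its other probe set was dim in every region (means 1.05, 1.54 and 0.71) and differed by 0.35 and 0.83. With the mean of both probe sets the differences were -1.51 in the SVZ (adjusted p = 0.0166) and -1.18 in the hippocampus (adjusted p = 0.0606), and with quantile normalization the hippocampus call was also lost (-2.74, adjusted p = 0.0606). Hspb11 also passed the series' own rule of a change over 4-fold at p below 0.01, as 2 chaperone genes did in each comparison (2.78%, against 2.55% and 2.45% of all genes). The other gene was Hsp90aa1 for the SVZ and Dnajc24 for the hippocampus, and no chaperone gene passed this rule upward (0.66% and 0.423% of all genes).

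Among the Hsp70 genes, Hspa8, the constitutive cytosolic Hsc70 that also strips clathrin from vesicles, had a small difference, whose size depended on the normalization. Its signals were 10.88, 11.19, 11.33, 11.14 and 11.18 in the SVZ, 11.08, 11.23, 10.88, 11.21 and 10.69 in the hippocampus, and 11.62, 11.18, 11.78, 12.02 and 12.08 in the cerebellum. Cerebellum array 2 lay inside the range of the others and the remaining 4 cerebellum arrays lay above it. The hippocampus was lower by a log2 difference of -0.72 ± 0.18 (limma adjusted p = 0.036), while the SVZ difference of -0.59 ± 0.18 missed the threshold (adjusted p = 0.0745). The 3 other Hspa8 probe sets differed by -0.99, -1.04 and -0.63 for the SVZ and by -1.24, -1.26 and -1.51 for the hippocampus. The hippocampus call was lost when any 1 of hippocampus arrays 1, 3 and 5 or cerebellum arrays 1, 3, 4 and 5 was left out (adjusted p = 0.0559 to 0.103). With quantile normalization the difference was -0.10 in the hippocampus (adjusted p = 0.809) and -0.04 in the SVZ (adjusted p = 0.938), and the hippocampus call was lost in 9 of the 11 alternatives other than leaving out 1 array.

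Hspa1a and Hspa1b, the stress-inducible Hsp70 pair, are near-identical genes whose signals may be shared between their probe sets, so the split between them is uncertain. Hspa1b read 3.00, 6.67, 5.07, 5.71 and 4.59 in the SVZ, 3.02, 6.03, 6.08, 0.62 and 5.54 in the hippocampus and 4.91, 4.45, 4.71, 5.45 and 6.58 in the cerebellum. Arrays within the SVZ and the hippocampus thus differed by several log2 units, and all 3 regions overlapped. Hspa1a read 2.65, 5.66, 3.98, 4.02 and 5.93 in the SVZ, 2.66, 4.50, 3.23, 3.62 and 3.37 in the hippocampus and 3.07, 2.66, 2.44, 3.68 and 4.16 in the cerebellum. Its SVZ mean had the highest upward difference of the 72 genes, 1.25 ± 0.57, which did not pass (adjusted p = 0.229), and SVZ arrays 1, 3 and 4 lay within the cerebellum range. For Hspa1b the differences were -0.21 ± 0.98 and -0.96 ± 0.98 (adjusted p = 0.917 and 0.586).

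Hsph1, the inducible Hsp110 whose heat shock element is printed above, showed how uneven the hippocampus arrays were. They read 2.10, 8.49, 6.93, 4.44 and 7.84, where the SVZ arrays read 6.63, 7.34, 7.18, 6.66 and 7.51 and the cerebellum arrays 8.04, 8.61, 7.94, 8.15 and 8.76. Every SVZ array was below every cerebellum array, while the hippocampus arrays lay on both sides of them, and in the fit, which uses 1 spread for all 3 regions, neither difference passed (-1.24 ± 0.92, adjusted p = 0.459 for the SVZ; -2.34 ± 0.92, adjusted p = 0.176 for the hippocampus). A second probe set of Hsph1 gave -2.37 and -1.04, so the 2 probe sets disagreed on which region was further from the cerebellum. Fitted with only the SVZ and cerebellum arrays, Hsph1 was among 10 chaperone genes called lower (13.9%, against 5.74% of all genes). The joint fit called 4 (5.56%, against 4.47%). Neither pair of shares was matched for brightness. The 2 other Hsp110 genes, Hspa4 and Hspa4l, differed by -0.81 and -0.43 in the SVZ and by -0.34 and -0.85 in the hippocampus, and did not pass.

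Of the Hsp70 genes of organelles, Hspa5 (BiP, the ER Hsp70) read 9.14, 8.31, 9.61, 9.48 and 9.37 in the SVZ, 8.38, 10.11, 8.59, 8.79 and 9.47 in the hippocampus and 9.28, 8.85, 9.28, 9.87 and 10.14 in the cerebellum, and the regions overlapped. Its differences were -0.30 ± 0.36 and -0.42 ± 0.36 (adjusted p = 0.643 and 0.516). Another bright probe set of Hspa5 gave -1.01 and -0.89, and a dim one gave 0.25 and 0.26. Hspa9, mitochondrial mortalin, differed by 0.15 ± 0.36 (95% interval -0.63 to 0.92) and 0.35 ± 0.36 (-0.42 to 1.13). Hspa13, an Hsp70-like protein found in microsomes, missed the threshold at -1.94 ± 0.59 for the SVZ (adjusted p = 0.072) and -1.78 ± 0.59 for the hippocampus (adjusted p = 0.106). Its SVZ arrays read 1.04, 3.44, 3.87, 1.38 and 1.31, and its cerebellum arrays read 4.45, 3.33, 4.22, 4.33 and 4.43. Its hippocampus arrays read 1.87, 2.17, 3.20, 1.14 and 3.50. SVZ arrays 2 and 3 and hippocampus array 5 reached the cerebellum range.

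Hsp90aa1, the inducible cytosolic Hsp90, was lower in the SVZ than in the cerebellum on every array. It read 5.07, 6.84, 6.55, 6.70 and 6.55 in the SVZ and 8.78, 8.29, 8.33, 7.82 and 8.61 in the cerebellum. The hippocampus fell on both sides, with arrays 1, 2 and 5 at 7.69, 8.33 and 7.94 and arrays 3 and 4 at 5.97 and 5.47. The SVZ difference was -2.02 ± 0.52 (adjusted p = 0.0356), or 4.07-fold lower, and the hippocampus difference of -1.29 ± 0.52 did not pass (adjusted p = 0.187). Whether the SVZ and the hippocampus differ from each other was tested directly and did not pass (-0.74 ± 0.52, adjusted p = 0.772, 95% interval -1.85 to 0.37). The 2 other bright probe sets of Hsp90aa1 gave -2.44 and -1.86 for the SVZ. Leaving out any 1 of SVZ arrays 1, 3, 4 and 5 or of the 5 cerebellum arrays moved the adjusted p to between 0.0504 and 0.0886.

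Hsp90b1, the ER form of Hsp90 also known as GRP94, read 7.26, 7.33, 8.42, 7.77 and 7.82 in the SVZ, 7.25, 9.23, 8.65, 7.86 and 8.86 in the hippocampus and 8.42, 8.45, 8.69, 9.06 and 9.44 in the cerebellum. SVZ array 3 reached the lowest cerebellum array and the hippocampus spanned both ranges. Neither difference passed, at -1.09 ± 0.36 (adjusted p = 0.0963) and -0.44 ± 0.36 (adjusted p = 0.492).

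The chaperonin genes Hspe1 and Hspd1 share the promoter printed above, and Hspe1 was lower in the hippocampus than in the cerebellum. Hspe1 (Hsp10, the lid of the chaperonin) read 8.65, 8.12, 7.91, 8.87 and 7.76 in the SVZ, 7.80, 8.55, 7.29, 6.58 and 8.85 in the hippocampus and 9.24, 9.07, 9.69, 9.27 and 9.35 in the cerebellum. All cerebellum arrays were above all others. The hippocampus difference passed at -1.51 ± 0.37 (adjusted p = 0.0322), or 2.85-fold lower, and the SVZ difference of -1.06 ± 0.37 did not (adjusted p = 0.119). Its second probe set gave -1.10 for the hippocampus and -0.72 for the SVZ. The hippocampus call was lost when any 1 of hippocampus arrays 1, 3 and 4 or of the 5 cerebellum arrays was left out (adjusted p = 0.0554 to 0.0798). For Hspd1 (Hsp60, the barrel) the arrays overlapped, reading 8.64, 7.42, 8.21, 8.15 and 7.82 in the SVZ, 6.51, 8.14, 7.18, 8.66 and 7.52 in the hippocampus and 8.41, 8.16, 8.08, 8.18 and 8.46 in the cerebellum. Its differences were -0.21 ± 0.34 and -0.66 ± 0.34 (adjusted p = 0.739 and 0.292). Whether the 2 genes differed in their change was not tested.

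**Figure D2:**
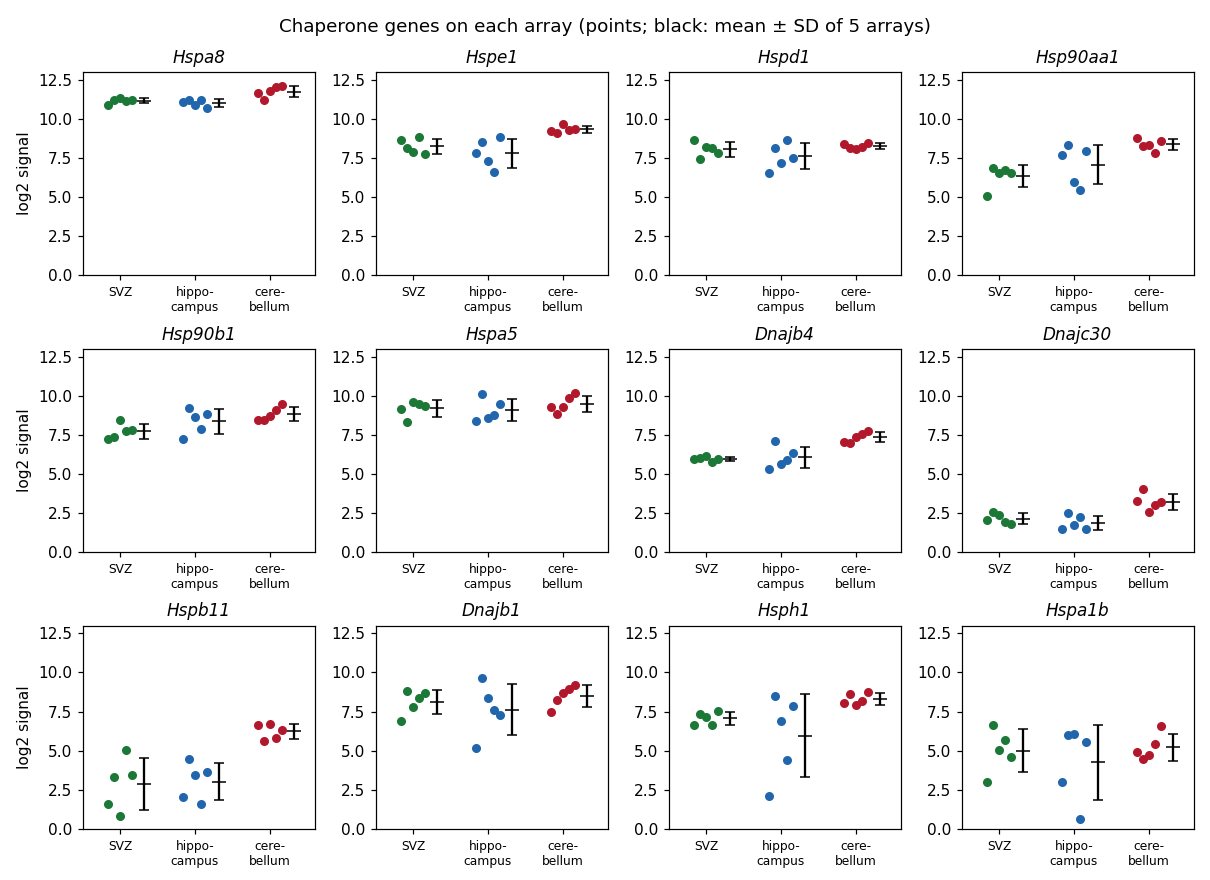
Log2 signal of 12 chaperone genes on each of 5 SVZ (green), 5 hippocampus (blue) and 5 cerebellum (red) arrays; black bars are the mean ± SD of the 5 arrays. The cerebellum points of Hspb11, between 5.65 and 6.70, lie above all other points, while the hippocampus points of Hsph1 run from 2.10 to 8.49.

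The Hspb genes were mostly dim, with a mean above 3 for the small heat shock protein gene Hspb8 and for Hspb11 alone. Hspb1 (Hsp27, an inducible holdase) read 2.25, 5.04, 2.56, 2.23 and 1.94 in the SVZ and 3.14, 5.58, 1.89, 2.24 and 1.56 in the hippocampus. Cerebellum values were 1.62, 1.46, 1.94, 1.57 and 2.16. SVZ array 2 and hippocampus array 2 stood above the rest, and the differences of 1.05 ± 0.71 and 1.13 ± 0.71 did not pass (adjusted p = 0.413 and 0.376). Hspb8, the partner of Bag3 in selective autophagy, read 2.66, 6.44, 1.90, 3.52 and 5.05 in the hippocampus, again with array 2 highest, and 2.95, 1.79, 2.20, 2.82 and 5.51 in the cerebellum. Hspb6 (Hsp20) missed the threshold in the hippocampus at -1.14 ± 0.36 (adjusted p = 0.0907).

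Dnajb4, a cytosolic Hsp70 partner, was lower than in the cerebellum in both regions. SVZ arrays read 5.96, 6.01, 6.13, 5.78 and 5.95, and cerebellum arrays read 7.07, 6.99, 7.36, 7.53 and 7.77. Hippocampus arrays read 5.33, 7.10, 5.62, 5.89 and 6.33, so that array 2 alone reached the cerebellum range. The difference was -1.38 ± 0.28 for the SVZ (adjusted p = 0.00972), or 2.60-fold lower, and -1.29 ± 0.28 for the hippocampus (adjusted p = 0.0153), or 2.45-fold lower. Its dimmer probe sets disagreed with each other, one giving -1.41 and -0.60 and the other 1.57 and 0.95, and with the mean of the 3 probe sets Dnajb4 was not called (-0.40 and -0.31, adjusted p = 0.455 and 0.552).

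Dnajc30, a mitochondrial inner membrane DnaJ protein, was dim and measured by 1 probe set. It read 2.05, 2.58, 2.40, 1.93 and 1.80 in the SVZ, 1.46, 2.48, 1.75, 2.23 and 1.47 in the hippocampus and 3.26, 4.04, 2.57, 3.01 and 3.18 in the cerebellum. The lowest cerebellum array and the highest SVZ array were nearly level, and the hippocampus arrays lay below all cerebellum arrays. Differences were -1.06 ± 0.28 (adjusted p = 0.0402) for the SVZ and -1.33 ± 0.28 (adjusted p = 0.0126) for the hippocampus. The SVZ call was lost when any 1 of SVZ arrays 1, 3, 4 and 5 or cerebellum arrays 1, 2, 4 and 5 was left out (adjusted p = 0.0504 to 0.0909). With quantile normalization neither was called (-0.62 and -0.94, adjusted p = 0.251 and 0.0721). The calls of Hspb11 and Dnajb4 in both comparisons, and of Dnajc30 in the hippocampus, were kept in all 15 fits that left out 1 array. In each comparison 5 of those fits left out an array of the third region, which leaves the difference itself unchanged. Of the 11 other alternatives, Hspb11 was lost in 2 for the SVZ and 4 for the hippocampus. Dnajb4 was lost in 3 and 6, and Dnajc30 in the hippocampus in 3. For Dnajb4 in the hippocampus, quantile normalization was among them (-0.84, limma adjusted p = 0.0895).

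Dnajb1, the inducible Hsp40 that works with Hsp70 to dissolve aggregates, read 6.89, 8.79, 7.80, 8.36 and 8.71 in the SVZ, 5.19, 9.63, 8.36, 7.62 and 7.30 in the hippocampus and 7.45, 8.27, 8.69, 8.92 and 9.20 in the cerebellum. Hippocampus arrays 1 and 2 were the lowest and the highest of the 15. The differences were -0.40 ± 0.66 and -0.89 ± 0.66 (adjusted p = 0.747 and 0.452). Dnaja1, a general cytosolic partner of Hsp70, read 7.24, 8.81, 7.19, 7.61 and 7.77 in the hippocampus and 8.75, 8.35, 9.04, 8.75 and 9.08 in the cerebellum, and only hippocampus array 2 reached the cerebellum range. Its difference of -1.07 ± 0.30 fell just short of the threshold (adjusted p = 0.0572), and that of the SVZ was -0.54 ± 0.30 (adjusted p = 0.318). The dimmer probe sets of Dnaja1 gave -1.88 and -2.19 for the SVZ and -0.85 and -2.52 for the hippocampus. With the mean of the probe sets, Dnaja1 was called lower in both comparisons.

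Other DnaJ genes near the threshold have narrower tasks. Dnajc24, which takes part in making diphthamide on elongation factor 2, read 1.13, 3.81, 0.95, 2.65 and 3.31 in the hippocampus and 5.12, 4.85, 4.64, 4.45 and 4.04 in the cerebellum, without overlap. Its difference was -2.25 ± 0.61 (adjusted p = 0.0514), and -1.69 ± 0.61 for the SVZ (adjusted p = 0.13). Dnajc9, a histone chaperone, differed by -1.69 ± 0.54 in the hippocampus (adjusted p = 0.0935), and Dnajc14 by -1.22 ± 0.34 in the SVZ (adjusted p = 0.0525). Dnajb7, a dim testis gene with values from 0.51 to 1.78 on the 15 arrays, was the one chaperone gene whose SVZ arrays all lay above the cerebellum arrays (2.60% of all genes), with a difference of 0.55 ± 0.16 (adjusted p = 0.058). In the opposite direction, 7 chaperone genes had all SVZ arrays below all cerebellum arrays (9.72%, against 6.02% of all genes), namely Hspb11, Hsp90aa1, Hspe1, Hsph1, Dnajb4, Dnajc7 and Dnaja4. For the hippocampus there were 4 (5.56%, against 5.30% of all genes), namely Hspb11, Hspe1, Dnajc24 and Dnajc30. No chaperone gene had all hippocampus arrays above all cerebellum arrays (2.68% of all genes). These shares were not matched for brightness.

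Grouped by role, 12 genes were listed as stress-inducible, the constitutive Hspa8 among them. Their median difference was -0.48 in the SVZ, with 2 lower (Hsp90aa1 and Dnajb4). In the hippocampus it was -0.92, with 3 lower (Hspa8, Hspe1 and Dnajb4). Of all genes, 4.47% and 3.97% were lower in these comparisons, which is the background for each role group, too small to read a share from. The 13 genes of the ER had medians of -0.59 and -0.69 and none passed in either region. At an unadjusted limma p below 0.05, Hsp90b1, Hspa13, Dnajb12 and Dnajc18 were lower in the SVZ. In the hippocampus these were Hspa13 and Dnajb12. Of all genes, 13.6% and 12.6% were lower at that threshold. Dnajc3 (P58IPK, an ER-lumen co-chaperone of BiP), whose ER stress response element is printed above, differed by 0.06 ± 0.30 and 0.02 ± 0.30. The 8 mitochondrial genes had medians of -0.25 and -0.62, with 1 lower in the SVZ (Dnajc30) and 2 in the hippocampus (Dnajc30 and Hspe1). The 9 testis and germ cell genes had medians of 0.14 and 0.22 with none called, and all but Hspa2 had a mean of 1.25 or less over the 15 arrays. In the 7 genes linked to synaptic vesicles, clathrin or neuronal aggregation, among them Dnajc5 (cysteine string protein) and Dnajc6 (auxilin), the medians were -0.15 and -0.06 and none passed.

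Between the SVZ and the hippocampus no chaperone gene passed in limma in either direction, where 3 genes (0.0165%) were higher and 1 (0.0055%) lower over the whole array. At an unadjusted p below 0.05 there was 1 of the 72 each way (1.39%, against 3.53% of all genes higher and 3.49% lower), both dim small heat shock protein genes. Hspb3 was higher in the SVZ by 0.32 ± 0.15 (adjusted p = 0.703), with every SVZ array (0.82 to 1.60) above every hippocampus array (0.65 to 0.78), a separation found in 0.374% of all genes. None was separated downward (0.44% of all genes). Hspb2 was lower in the SVZ, at -0.63 ± 0.21 (adjusted p = 0.531). The median difference over the 72 genes was -0.02, and single differences ran from -1.34 to 1.23. For several bright genes the interval was narrow, such as Hspa8 (0.13, 95% interval -0.26 to 0.51) and Dnajb4 (-0.09, -0.68 to 0.51), while that of Hsph1 ran from -0.86 to 3.07.

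**Figure D3:**
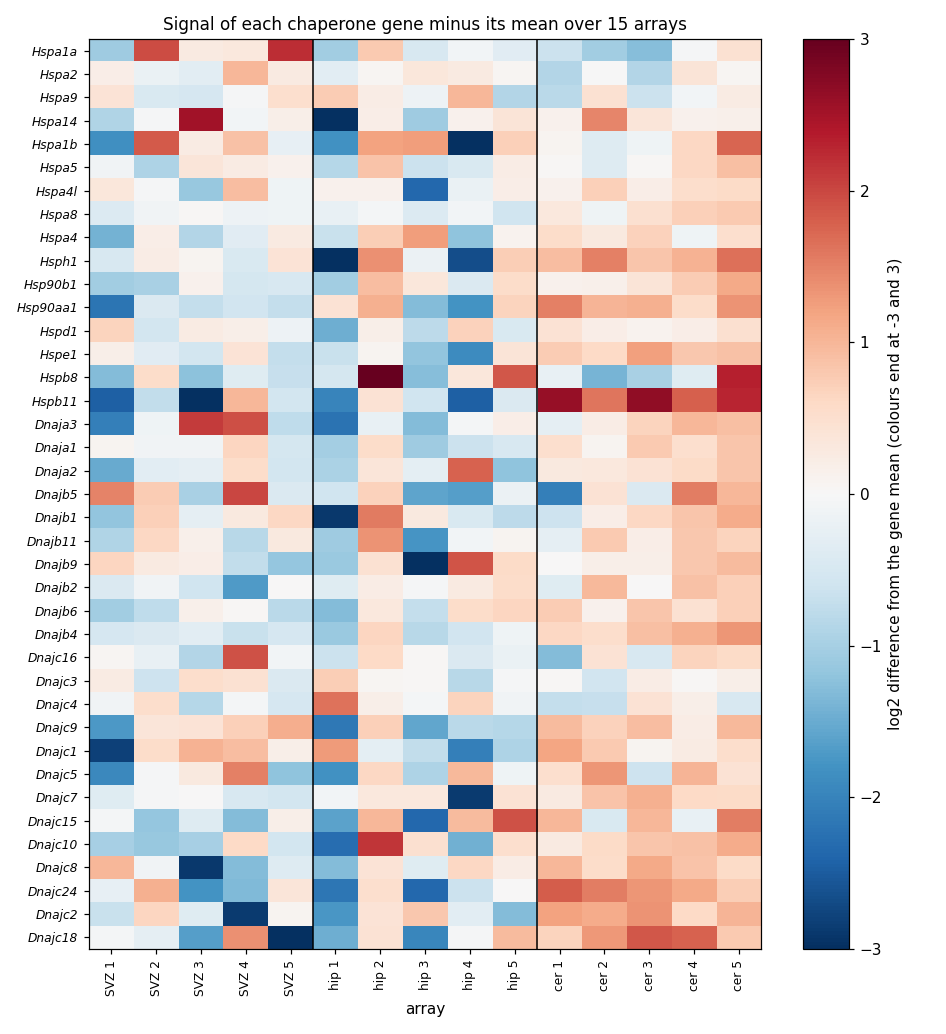
Signal of the 39 chaperone genes with a mean above 3 on each array, as the log2 difference from the gene's mean over 15 arrays (blue lower, red higher, colours end at -3 and 3). The 5 cerebellum columns are mostly pale red and alike, while hippocampus 1 is mostly blue and hippocampus 2 mostly red.

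The spread between arrays was itself uneven between regions. Over the 39 brighter chaperone genes the median SD of 5 arrays was 0.72 in the SVZ, 1.07 in the hippocampus and 0.43 in the cerebellum, and over all 4816 genes of that brightness it was 1.00, 1.00 and 0.48. The SD was above that of the cerebellum for 30 of the 39 genes in the SVZ and for 33 in the hippocampus. The mean of the 39 genes was 5.17, 5.80, 5.49, 5.90 and 5.56 in the SVZ, 4.72, 6.42, 5.12, 5.33 and 5.87 in the hippocampus and 6.07, 6.21, 6.24, 6.41 and 6.65 in the cerebellum. Hippocampus array 2 alone lay in the cerebellum range. The 12 genes listed as stress-inducible, Hspa8 included, had means of 5.64, 7.70, 6.17, 5.80 and 6.73 in the hippocampus. Their means were 6.26 to 7.25 in the SVZ and 7.0 to 7.72 in the cerebellum. Hippocampus array 2 and SVZ array 2 lay in the cerebellum range.

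Several array-wide measures also differed between the regions. The share of probe sets with a signal above 3 was 15.1% to 19.5% on SVZ arrays, 15.2% to 19.8% on hippocampus arrays, with array 2 highest, and 20.1% to 22.4% on cerebellum arrays. The probe sets of poly-A spike-in controls averaged 11.04 to 13.1 in the SVZ, 11.5 to 12.9 in the hippocampus and 8.49 to 12.3 in the cerebellum, where arrays 4 and 5 were lowest. Correlations between arrays of one region were 0.763 to 0.894, 0.791 to 0.884 and 0.939 to 0.970. With the spike-in mean as a covariate, or without cerebellum arrays 4 and 5, none of the 9 calls was kept at an adjusted p below 0.05. Some differences stayed about as large, such as Hspb11 in the SVZ (-3.18 and -3.48, beside -3.37) and Hsp90aa1 (-1.81 and -2.12, beside -2.02), while others shrank, such as Dnajb4 in the SVZ (-0.85 and -1.17, beside -1.38) and Hspa8 in the hippocampus (-0.45 and -0.51, beside -0.72). Beyond these fits, their part in the differences was not tested.

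**Figure D4:**
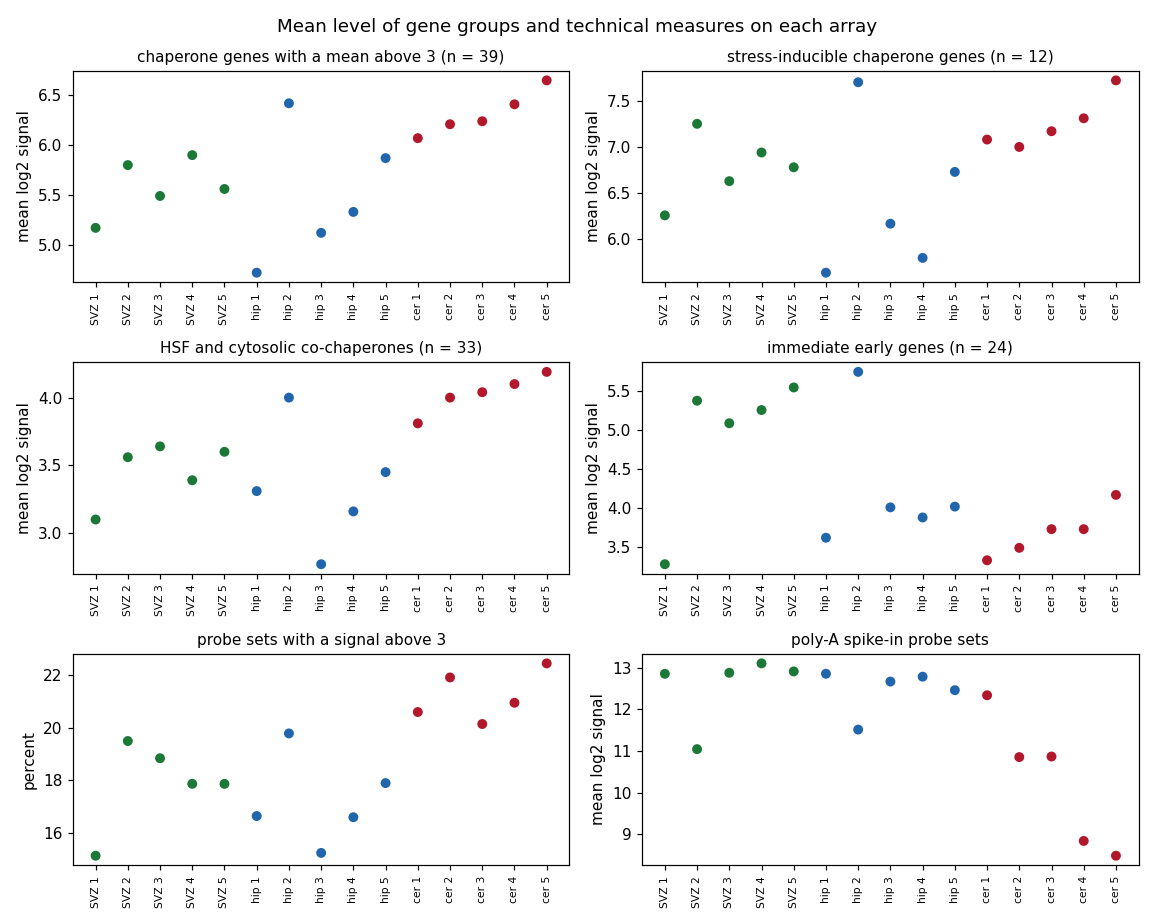
Mean log2 signal of 4 gene groups, percentage of probe sets above 3 and mean log2 signal of the poly-A spike-ins, for each of the 15 arrays (green SVZ, blue hippocampus, red cerebellum). Hippocampus 2 is the highest array of its region for chaperone genes (6.42), stress-inducible genes (7.70) and immediate early genes (5.75), and cerebellum 4 and 5 have the lowest spike-in signal.

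The regulators and partners of the chaperones were read from fixed lists. Of 33 measured genes for heat shock factors and cytosolic co-chaperones, 2 were lower than in the cerebellum in each region and none was higher. Over all genes, 4.47% were lower and 1.03% higher in the SVZ, and 3.97% lower and 0.808% higher in the hippocampus. These shares are the background for this list and the lists below. Calls in these lists are given for the main fit alone. St13, which stabilises Hsp70 bound to its clients, was lower by -2.14 ± 0.38 in the SVZ (adjusted p = 0.00429) and -1.48 ± 0.38 in the hippocampus (adjusted p = 0.0394). Bag3, an inducible nucleotide exchange factor that steers clients to autophagy, was lower by -1.53 ± 0.40 (adjusted p = 0.0382) and -1.55 ± 0.40 (adjusted p = 0.039), at means of 1.00, 0.97 and 2.52 in the SVZ, hippocampus and cerebellum. Bag3 was dim, and cerebellum arrays 1 and 3 (1.34 and 1.57) lay within its SVZ range (0.53 to 1.63). Cerebellum array 1 also lay within its hippocampus range (0.64 to 1.52). The list's median difference was -0.48 and -0.68. For this and the next lists, the median was 0.07 in both regions over all genes. Over genes with a mean above 3 it was -0.72 and -0.70.

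The 15 genes of the cytosolic chaperonin TRiC and its feeder prefoldin had medians of -1.03 and -1.05. In the SVZ the TRiC subunit gene Cct7 (-1.65 ± 0.35, adjusted p = 0.0142) and the prefoldin gene Pfdn1 (-2.01 ± 0.40, adjusted p = 0.00962) were lower, and none passed in the hippocampus. Of 14 genes for mitochondrial folding and proteolysis, Hscb, a J-domain protein for iron-sulphur clusters, was lower in both regions (-1.30 ± 0.32, adjusted p = 0.0293, and -1.22 ± 0.32, adjusted p = 0.0439). Hscb was dim, with means of 1.20, 1.28 and 2.51 in the SVZ, hippocampus and cerebellum. Cerebellum array 1 (1.43) lay within the SVZ range (0.89 to 1.48).

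Among 28 genes of ER folding and the unfolded protein response, the SVZ was lower for Atf6, the sensor that acts on the element printed above (-1.59 ± 0.42, adjusted p = 0.0422). Atf6 was dim, with means of 1.87, 2.29 and 3.47 in the SVZ, hippocampus and cerebellum. The SVZ was also lower for the disulphide isomerase gene Pdia6 (-1.19 ± 0.32, adjusted p = 0.0422). The hippocampus was lower for Canx, the lectin chaperone calnexin (-1.19 ± 0.31, adjusted p = 0.0395). It was higher for Atf4, the transcription factor of the integrated stress response, with 8.36, 8.17, 8.72, 8.16 and 8.35 in the hippocampus above 7.32, 7.29, 7.34, 7.55 and 7.82 in the cerebellum (0.89 ± 0.20, adjusted p = 0.0178). The SVZ arrays for Atf4 ran from 7.32 to 8.30, and their difference was 0.17 ± 0.20.

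Immediate early genes, which dissociation is known to induce along with heat shock genes, mostly had differences above 0, in 22 of 24 for the SVZ and 20 of 24 for the hippocampus, compared with 56.5% and 55.8% of all genes. Of the 24, 2 were higher in the SVZ, Nr4a1 (2.79 ± 0.68, adjusted p = 0.0288) and Nr4a2 (3.58 ± 0.70, adjusted p = 0.00811), and 1 in the hippocampus, Nr4a3 (1.31 ± 0.21, adjusted p = 0.00221), where 1.03% and 0.808% of all genes were higher. All 3 encode orphan nuclear receptors. Nr4a3 was dim, with means of 1.87, 2.60 and 1.29 in the SVZ, hippocampus and cerebellum. The list's median difference was 1.28 in the SVZ and 0.45 in the hippocampus. Its mean level was 3.28 on SVZ array 1 and 5.09 to 5.55 on the other SVZ arrays, 5.75 on hippocampus array 2 and 3.62 to 4.02 on the other hippocampus arrays, and 3.33 to 4.17 in the cerebellum. SVZ array 1 was also lowest of its region, and hippocampus array 2 highest of its region, for the stress-inducible chaperone mean. SVZ array 5, highest of its region for the immediate early list, had a stress-inducible mean of 6.78, below 7.25 on SVZ array 2. Cerebellum arrays had stress-inducible means of 7.0 to 7.72. Hippocampus array 2 was also highest of its region for choroid plexus (8.20), ependymal (3.20) and endothelial (3.82) markers. The part of dissociation in these levels was not tested.

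The sorted cells were checked against cell type markers. All 10 astrocyte markers had a mean above 3 in each region, although 1 was lower and 1 higher in the SVZ than in the cerebellum and 3 were lower in the hippocampus. Gfap ran from 2.69 to 5.46 in the SVZ, 6.20 to 7.60 in the hippocampus and 3.26 to 6.03 in the cerebellum, and Gli1 was dim, with medians of 2.30, 2.12 and 3.11. All 6 markers of Bergmann glia, the astroglia of the cerebellum, were lower in both regions than in the cerebellum. Of 10 microglia markers, 4 were higher in the SVZ and 2 in the hippocampus, and their mean level was 3.40 to 6.48, 3.00 to 5.36 and 1.39 to 2.85 in the 3 regions. Oligodendrocyte precursor markers were higher for 2 of 5 in the SVZ and 1 in the hippocampus, and choroid plexus markers had a mean level of up to 2.82 in the SVZ, 8.20 in the hippocampus and 7.51 in the cerebellum, with none called. Ependymal cell, neuroblast and red blood cell markers gave no call, and neuron, oligodendrocyte and endothelial lists gave at most 1 each way. The part of these cells in the chaperone differences was not tested.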

How the data were processed

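The deposited values of 45101 probe sets on 15 arrays are log2 signals. The authors' method was RMA, as the submitters' processing notes name it, after amplification of RNA from small sorted samples, per the labels' protocols. The base of 2 was taken from the method and from array maxima of 14.97 to 15.08. Array medians were 1.12 to 1.31, and no detection call was used. Probe sets with 1 gene symbol in the platform annotation (34945) were kept, 932 with several symbols and 9211 not listed were left out, and symbols were updated through Entrez identifiers. The probe set with the highest mean stood for its gene, as 46 of the 72 members had several. For 19 members that probe set was of a type (a, s or x suffix) that can detect several transcripts or genes, those of Hspa8 and Hspe1 included.

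Regions were compared with limma 3.58.1 in R 4.3.3 (lmFit and eBayes, all 15 arrays in 1 fit, Benjamini-Hochberg adjustment over 18193 genes, called below 0.05). The number of arrays, 5 per region, limits the precision. The test was also run on simulated data with known changes. The outcome of that run is not given here, so no conclusion is drawn from it. Members and lists were chosen with earlier results of these data known. Named were up to 10 called members each way, 13 fixed chaperone genes, the 5 members with the highest mean and up to 2 called pathway genes each way per list; other members in the text were chosen after their values were seen. The titles give replicate numbers but do not say whether arrays of the same number shared mice or a sort. The main fit did not pair them. Correlations of same-numbered arrays' deviations were -0.121 to 0.138, which cannot settle this. Alternatives were the normalization, probe set choice, filter, weights, spread model, arrays used, replicate block and a spike-in covariate.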

Additional observations from a re-analysis of the deposited data

Results flagged for a closer look

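Each of 84 gene and region groups of 5 arrays was looked at for 1 array far from the other 4, which chance gives in about 1 of 20 groups. There were 3. Hsp90aa1 read 5.07 on SVZ array 1 and 6.55 to 6.84 on the other SVZ arrays. Hspb1 read 5.04 on SVZ array 2, against 1.94 to 2.56 on the others. Nr4a1 read 5.13 on hippocampus array 2, against 1.59 to 2.19 on the others of that region.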

How the results depend on the processing

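The medians over the 72 genes stayed below 0 against the cerebellum under every alternative run (with 1 array left out, -0.46 to -0.10 for the SVZ and -0.58 to -0.25 for the hippocampus), and shrank to -0.07 and -0.12 with quantile normalization and to -0.05 and -0.10 with the spike-in covariate. Counts of calls were less stable. Genes lower in the SVZ (4) numbered 2 with quantile normalization or without SVZ 1 and hippocampus 3, 8 with the mean of the probe sets, 10 with only the 2 groups compared, and 0 without cerebellum 4 and 5 or with the spike-in covariate; leaving out 1 array gave 2 to 6, with 2 when SVZ 4 or 5 or cerebellum 4 or 5 was left out. Genes lower in the hippocampus (5) numbered 0 with quantile normalization, the spike-in covariate or without cerebellum 4 and 5, 3 with a trended and robust spread and 2 without SVZ 1 and hippocampus 3. Leaving out 1 array gave 3 to 9, with 9 without hippocampus 2 and 3 without hippocampus 1 or 3 or cerebellum 1, 3, 4 or 5. One gene became higher in the SVZ, Dnajb7, with the mean of the probe sets, array weights or the trended spread (1 each), and 1 in the hippocampus, Hspb2, with array weights. Genes past 4-fold (2 in each) fell to 1 with quantile normalization or without SVZ 1 and hippocampus 3 in both comparisons, to 1 with the spike-in covariate in the hippocampus and to 0 with the mean of the probe sets in both; leaving out 1 array gave 1 to 5 (5 without SVZ 2) and 1 to 4 (4 without hippocampus 2 or 5). The cause was not tested, beyond the fewer arrays of some fits.

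No called gene changed sign. Among uncalled differences, Hspa1b in the SVZ turned to 0.30 (quantile), 0.11 (mean of probe sets), 0.08 (weights), 0.29 (without SVZ 1 and hippocampus 3), 0.32 (without cerebellum 4 and 5) and 1.38 (spike-in), and spanned -0.63 to 0.29 with 1 array left out. Hspa5 in the SVZ turned to 0.08 (quantile and spike-in) and 0.05 (without cerebellum 4 and 5), Hspd1 to 0.16 (quantile), Hspa9 to -0.09 (weights; -0.02 to 0.30 with 1 array left out) and Dnajb1 to 0.86 (spike-in). With the spike-in covariate the hippocampus values of Dnajb1, Hsp90b1 and Hspa1b were 0.32, 0.04 and 0.56. Between SVZ and hippocampus, Dnaja1, Hspa5 and Hsph1 became -0.06, 0 and -0.12 with the mean of probe sets, and Hspa5 and Hspb1 became -0.08 and 0.26 with weights; with 1 array left out, Hspb1 spanned -0.64 to 0.60, Hspa5 -0.06 to 0.37, Dnajb1 -0.12 to 0.99 and Hspa1b -0.16 to 1.25.

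With the replicate number as a block, 5 genes were lower in the SVZ and 4 in the hippocampus. There the calls of Hspa8 (limma adjusted p = 0.0765) and Hspe1 (limma adjusted p = 0.0769) were lost. Whether the numbers pair the arrays is not stated in the titles. Dim genes near the array floor, among them most small heat shock protein genes, could not show a lower level.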

Other observations

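Members not described above gave values without a call. The ribosome-bound pair Hspa14 and Dnajc2, which fold chains as they leave the ribosome, differed from the cerebellum by -0.11 ± 0.74 and -1.69 ± 0.60 in the SVZ and by -1.23 ± 0.74 and -1.49 ± 0.60 in the hippocampus (limma adjusted p = 0.947, 0.124, 0.359 and 0.188). Hspa14 ranged from 1.15 on hippocampus array 1 to 7.23 on SVZ array 3. Dnajb6 and Dnajb2, which hold back aggregation, differed by -1.07 ± 0.37 and -1.0 ± 0.34 in the SVZ (adjusted p = 0.114 and 0.105) and by -0.69 ± 0.37 and -0.31 ± 0.34 in the hippocampus.

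Other ER members were scattered between arrays of the hippocampus. Dnajb9 (ERdj4) read 5.09, 6.66, 3.09, 8.10 and 6.79 there, against 6.22 to 7.17 in the cerebellum. Dnajc10, the ER disulphide reductase ERdj5, read 1.38, 5.81, 4.16, 2.24 and 4.18, against 3.95 to 4.78, and Dnajb11 (ERdj3) read 4.95, 7.38, 4.25, 5.94 and 6.10, against 5.75 to 6.83. Hspa2, known for its role in sperm formation, was among the brighter members and evenly measured, with means of 7.48 ± 0.52, 7.38 ± 0.25 and 7.03 ± 0.58 (SD, n = 5) in the SVZ, hippocampus and cerebellum. Dnajc7, which hands clients between Hsp70 and Hsp90, read 3.44 on hippocampus array 4 and 6.23 to 6.75 on the other hippocampus arrays.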
